A study of Mus musculus with 4 samples.

Results

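Expression of 10 monocyte and macrophage genes (Cd68, Csf1r, Irf8, Lyz2, Itgam, Fcgr3, Cybb, Mpeg1, Ctss and Tyrobp) was examined in mouse long-term haematopoietic stem cells. The genes were taken as a list of known markers and matched by symbol to array probe sets, each of which is defined by 1 Entrez gene. Values were found for 9 of them among 23185 named genes, and Lyz2 was not analysed here. Marrow cells negative for lineage markers and positive for c-Kit and Sca were given 0, 0.02, 0.1 or 0.5 Gy of γ-irradiation and put into mice that had themselves been lethally irradiated. After 6 months, cells with CD150, c-Kit and Sca but without Flk2, CD48 or lineage markers were sorted from bone marrow, and their total RNA was put on Affymetrix whole-transcript arrays, 1 for each dose. All 4 groups, the 0 Gy control included, therefore come from transplanted cells in irradiated recipients. The sources used here do not give strain, sex, age, pooling of animals or a donor marker in the gate.

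Monocytes and macrophages are phagocytes of the myeloid lineage that descend from haematopoietic stem cells through committed progenitors. Their survival depends on the receptor for colony-stimulating factor 1, they recognise antibody-coated targets through Fc receptors and complement-coated ones through integrins, and they digest what they take up in lysosomes. Lineage depletion commonly uses an antibody to CD11b, the product of Itgam, so the sort is meant to remove these cells. The antibodies of the lineage cocktail are not listed in the labels.

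Values are log2 intensities as deposited, and a difference of 1 is 2-fold. With 1 array per dose there is no spread within a dose, and a difference between single arrays has no replicate check and no test. The number of arrays limits the precision. Array medians lay between 4.01 and 4.07 over 25206 probe sets. No detection calls were used, so the median over named genes of each gene's mean, 4.06, served as a rough level below which a signal may be mostly background. The stem cell label was looked at first. Across 0, 0.02, 0.1 and 0.5 Gy, Kit, the receptor for stem cell factor, measured 10.16, 10.57, 10.40 and 10.12. The gene for CD150, Slamf1, measured 7.67, 8.65, 7.16 and 7.77. All 8 stem cell genes with a value had means above 4.06.

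The monocyte and macrophage genes divided into a set of 3 with means above 4.06, which were Cd68, Ctss and Tyrobp, and a set of 6 that stayed below 4.06 on every array. The second set holds genes by which these cells are usually defined: Csf1r, Itgam, Fcgr3, Irf8, Cybb and Mpeg1. Because 4.06 is a median, 11593 of the 23185 named genes had means at or above it. The split itself therefore does not set the list apart. Within the list, signal above 4.06 came from lysosomal and adaptor genes, which other blood cells also use. RNA was measured in bulk, so fewer cells of a type and less RNA per cell cannot be told apart.

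**Figure D1:**
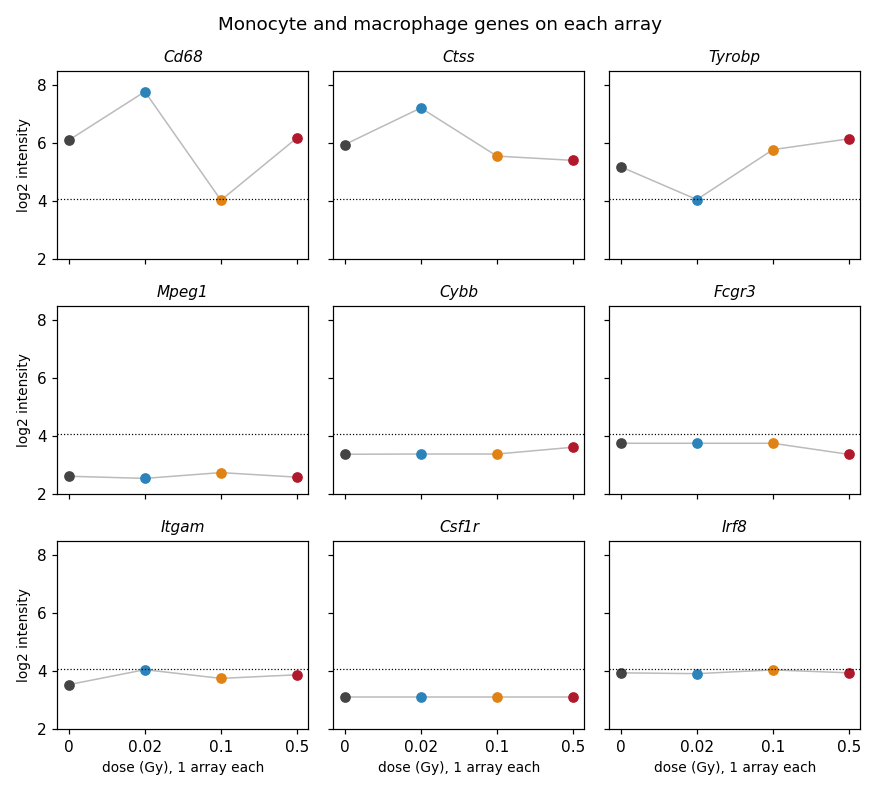
Log2 intensity of the 9 genes on each array, with doses at equal spacing on the horizontal axis, 1 point per array and a dotted line at 4.06. Cd68 and Ctss were highest at 0.02 Gy and Tyrobp was lowest there, while the other 6 genes lay under the line on all 4 arrays.

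Promoters are shown for Cd68 and Ctss, the members that were at least 2-fold higher at 0.02 Gy than at 0 Gy. The windows of 300 bases span the annotated start, most of them before it, in the direction of transcription, from RefSeq on GRCm38.p6. Cd68 lies at chr11:69666121-69666420 on the minus strand, and Ctss at chr3:95526536-95526835 on the plus strand. Capitals mark matches on either strand to GAGGAA (the purine-rich core bound by PU.1, the product of Spi1), GAAA followed after any 2 bases by a further GAAA (the core bound by interferon regulatory factors, here called the paired GAAA motif) and TGANTCA (the AP-1 site).

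Cd68: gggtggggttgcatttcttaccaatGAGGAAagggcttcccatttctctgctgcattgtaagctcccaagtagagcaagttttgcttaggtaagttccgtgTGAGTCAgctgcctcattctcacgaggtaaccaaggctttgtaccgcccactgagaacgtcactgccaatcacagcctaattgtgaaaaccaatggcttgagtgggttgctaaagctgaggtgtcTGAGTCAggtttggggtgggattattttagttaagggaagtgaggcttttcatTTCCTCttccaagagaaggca

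Ctss: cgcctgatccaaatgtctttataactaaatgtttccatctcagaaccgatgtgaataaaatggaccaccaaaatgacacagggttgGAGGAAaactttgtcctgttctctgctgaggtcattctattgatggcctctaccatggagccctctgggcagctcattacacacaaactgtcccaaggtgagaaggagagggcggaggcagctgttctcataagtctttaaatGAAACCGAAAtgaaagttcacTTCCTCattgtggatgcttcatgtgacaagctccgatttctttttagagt

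The Cd68 window holds 2 matches to GAGGAA and 2 to TGANTCA, and the Ctss window holds 2 to GAGGAA and 1 to the paired GAAA motif. No match overlaps another. Over 32544 different windows of the same length, 28.1% hold GAGGAA, 3.45% hold the paired GAAA motif and 7.79% hold TGANTCA. Of the 8 listed genes with a window examined, Lyz2 included, 5 hold GAGGAA, 2 hold the paired GAAA motif and 2 hold TGANTCA. A match describes letters in this window and is not a measured binding site.

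The lysosomal members were Cd68 and Ctss. Cd68 encodes a heavily glycosylated membrane protein of late endosomes and lysosomes. It had 6.10, 7.78, 4.02 and 6.18 at 0, 0.02, 0.1 and 0.5 Gy. The array at 0.02 Gy stood above the others, the one at 0.1 Gy stood below them at about the background level, and those at 0.5 Gy and 0 Gy were close. Cd68 was 3.20-fold higher at 0.02 Gy and 4.21-fold lower at 0.1 Gy than at 0 Gy, and at 0.5 Gy its log2 difference was 0.08. Between neighbouring irradiated doses it was 13.5-fold lower at 0.1 Gy than at 0.02 Gy and 4.46-fold higher at 0.5 Gy than at 0.1 Gy. Its range over the 4 arrays, 3.75 log2 units, was reached by 0.578% of the named genes. Because the value at 0.1 Gy lies near the background, the sizes of folds that involve it are uncertain.

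Ctss encodes cathepsin S, the protease that trims the class II invariant chain in antigen-presenting cells. It had 5.95, 7.22, 5.55 and 5.40 at 0, 0.02, 0.1 and 0.5 Gy. The array at 0.02 Gy was again the high one, and the other 3 lay within 0.55 log2 units of each other. The log2 difference from 0 Gy was 1.27 at 0.02 Gy, -0.40 at 0.1 Gy and -0.55 at 0.5 Gy. At 0.1 Gy Ctss was 3.17-fold lower than at 0.02 Gy, and between 0.5 and 0.1 Gy the log2 difference was -0.15. The range of Ctss, 1.81 log2 units, was reached by 2.01% of named genes.

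Tyrobp encodes DAP12, a small adaptor that carries the signal of TREM receptors in macrophages and of activating receptors in natural killer cells. Its values were 5.18, 4.05, 5.77 and 6.15 at 0, 0.02, 0.1 and 0.5 Gy. The order of the arrays differed from that of Cd68 and Ctss, with 0.02 Gy lowest, at about the background level, and 0.5 Gy highest. Tyrobp was 2.19-fold lower at 0.02 Gy than at 0 Gy, and its log2 differences at 0.1 and 0.5 Gy were 0.59 and 0.97. The first of these is just past 1.5-fold, which is 0.58 on this scale. Between irradiated doses Tyrobp was 3.31-fold higher at 0.1 Gy than at 0.02 Gy, and 0.5 Gy differed from 0.1 Gy by 0.37. A range as wide as that of Tyrobp, 2.10 log2 units, was found in 1.54% of named genes. The value at 0.02 Gy lies just under 4.06, so the sizes of the differences and of the range that involve it are uncertain too.

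The receptors were low on all arrays. Csf1r, the receptor for colony-stimulating factor 1 and interleukin 34, had the identical value of 3.11 at each dose. That exact value was shared, Csf1r included, by 96, 137, 88 and 118 named genes on the arrays for 0, 0.02, 0.1 and 0.5 Gy. Its ligand genes Csf1 and Il34 differed from 0 Gy by at most 0.26 log2 units at any dose. Fcgr3, a low-affinity receptor for immunoglobulin G, had 3.75 at 0, 0.02 and 0.1 Gy and 3.36 at 0.5 Gy. The value of 3.75 was held by 24, 18 and 58 named genes on those arrays. Its relatives Fcgr2b and Fcgr4, which resemble it in sequence, lay below 4.06 on every array as well.

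Itgam encodes CD11b, the alpha chain of the Mac-1 integrin. It had 3.53, 4.05, 3.75 and 3.87 at 0, 0.02, 0.1 and 0.5 Gy. The exact value at 0.1 Gy was shared, Itgam included, by 58 named genes on that array. All 3 irradiated arrays lay above the 0 Gy array, by 0.52, 0.22 and 0.34, each less than 1.5-fold. Itgb2, which encodes the beta chain CD18 that pairs with CD11b and with other integrin alpha chains, had 7.29, 6.61, 6.72 and 6.73 and so lay on the opposite side, with 0.02 Gy past 1.5-fold. A range as wide as that of Itgam was found in 27.8% of named genes.

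Irf8, a transcription factor of monocyte and dendritic cell fate, had 3.94, 3.91, 4.04 and 3.94, a range of 0.13 log2 units. Cybb, the catalytic subunit of the phagocyte NADPH oxidase, had 3.37, 3.38, 3.38 and 3.61. Mpeg1, which encodes the pore-forming perforin-2, had 2.61, 2.54, 2.74 and 2.58. The largest difference from 0 Gy among these 3 genes was 0.24, for Cybb at 0.5 Gy. The median range over the 4 arrays was 0.30 for all named genes.

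Across the list, 2 of 9 genes (Cd68 and Ctss) were at least 1.5-fold higher at 0.02 Gy than at 0 Gy, against 4.59% of all named genes, and 1 (Tyrobp) was lower, against 4.27%. At 0.1 Gy, 1 gene (Tyrobp) was higher, against 3.99%, and 1 (Cd68) lower, against 4.94%. At 0.5 Gy, 1 gene (Tyrobp) was higher, against 4.36%, and 0 were lower, against 5.39%. At 2-fold the counts were 2 higher and 1 lower at 0.02 Gy, against 1.81% and 1.1% of named genes. They were 0 and 1 at 0.1 Gy, against 1.13% and 1.69%, and 0 and 0 at 0.5 Gy, against 1.23% and 1.87%. All of these calls came from the 3 genes with means above 4.06. The lower calls, Tyrobp at 0.02 Gy and Cd68 at 0.1 Gy, use array values just under 4.06. Among named genes with means at or above 4.06 the shares at 1.5-fold in either direction were 12.6%, 13% and 14.2% at 0.02, 0.1 and 0.5 Gy. The median log2 difference over the 9 genes was 0.00, 0.01 and 0.00 at the 3 doses, and over all named genes it was 0.00 at each. Exactly equal values make up part of these medians: at each dose 2 of the 9 genes had the 0 Gy value. Between irradiated doses, 1 gene was higher and 2 lower at 0.1 Gy than at 0.02 Gy, against 4.12% and 5.5% of named genes. At 0.5 Gy, 1 gene was higher than at 0.1 Gy and 0 lower, against 4.11% and 4.41%.

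**Figure D2:**
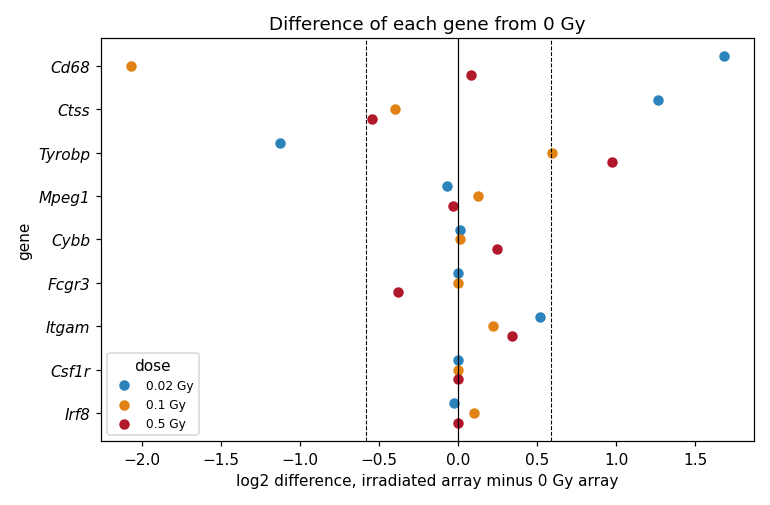
Log2 difference of each irradiated array from the 0 Gy array for the 9 genes, 1 point per dose, with dashed lines at 1.5-fold. Cd68, Ctss and Tyrobp lie past the lines at 1 or more doses, and the points of the other 6 genes lie between them.

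The 3 irradiated arrays together were compared with the 0 Gy array in limma over all named genes. This fit counts differences between doses as error and assumes that the single 0 Gy array varies like the others. It called 213 of 23185 genes at an adjusted p under 0.05, which is 0.919%, and 0 of the 9 members, of which 0 also had an unadjusted p under 0.05. Of the 213 genes, 154 had identical values on the 3 irradiated arrays, and 0 genes were called after quantile normalization, median centring or cyclic loess. Itgam had a log2 difference of 0.36 ± 0.16 (SE) in limma, higher in 3 of 3 irradiated arrays. These 3 are set against the same single 0 Gy array, so they are not separate checks, and Itgam lay below 4.06 on all 4 arrays. For Cd68 the difference was -0.10 ± 1.94 and for Ctss 0.11 ± 1.04, since the irradiated arrays lay on both sides of 0 Gy. Tyrobp had 0.14 ± 1.15. With a single 0 Gy array and only 9 members, the lack of calls among the members does not show that they were unchanged.

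Partners of the members in complexes and signalling were looked at next. The shares of all named genes given above also serve as the comparison for the counts in each list below. The partner and signalling genes with a value numbered 14. At 0.02 Gy 2 of them were past 1.5-fold, both lower, at 0.1 Gy 2, both higher, and at 0.5 Gy 0. The medians were -0.06, -0.06 and -0.09. The 2 lower at 0.02 Gy were Itgb2 and Cyba, which encodes the membrane partner of the Cybb product and had a log2 difference of -0.60. The 2 higher at 0.1 Gy were Ncf4, a cytosolic oxidase subunit, at 0.80, and Syk, a kinase that binds phosphorylated adaptors such as DAP12, at 0.78. Fcer1g, the Fc receptor gamma chain, had 5.44, 5.48, 5.77 and 5.32 at 0, 0.02, 0.1 and 0.5 Gy. Ncf1, another oxidase subunit, stayed between 4.36 and 4.73.

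Among 9 monocyte and macrophage transcription factors, 2 were past 1.5-fold at 0.02 Gy, both of them higher, 1 at 0.1 Gy, also higher, and 2 at 0.5 Gy, 1 in each direction. Klf4, a factor of the monocyte lineage with roles in many tissues, was at 1.01 at 0.02 Gy and 0.87 at 0.5 Gy, and Maf was at 0.59 and -0.64. Cebpa, needed for granulocyte and monocyte progenitors, was at 0.76 at 0.1 Gy, a size that is uncertain because its 0 Gy value of 3.45 lies below 4.06. Spi1, which encodes PU.1, had 8.71, 8.88, 8.76 and 9.06 and differed from 0 Gy by less than 1.5-fold at each dose.

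Of 10 genes for lysosomal proteases, their inhibitor and lysosomal membrane proteins, those past 1.5-fold were 1 higher gene at 0.02 Gy, 1 lower gene at 0.1 Gy and 0 genes at 0.5 Gy. Ctsh, the aminopeptidase cathepsin H, was the higher one at 1.10, with a 0 Gy value of 3.84 that lies below 4.06, and Ctsb, cathepsin B, the lower one at -0.88. Cst3, which encodes the cathepsin inhibitor cystatin C, had 10.02, 10.10, 9.91 and 10.12. The medians of the list were 0.09, 0.01 and -0.01.

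Other monocyte markers numbered 9 with a value. Past 1.5-fold were 3 of them at 0.02 Gy, all higher, 1 higher gene at 0.1 Gy and 1 lower gene at 0.5 Gy. The medians were 0.23, 0.07 and 0.03. The first of these is the difference of Cd14, which had 2.44 at 0 Gy and 2.67 at 0.02 Gy. Ccr2, Cd14, Fcgr1 and F13a1 lay below 4.06 on all 4 arrays. At 0.02 Gy 5 of the 9 genes were above their 0 Gy value, 2 were below it and 2 were equal. Ly6c2, which encodes a surface antigen of classical monocytes that other leukocytes also carry, had 6.28, 8.18, 6.83 and 4.72 at 0, 0.02, 0.1 and 0.5 Gy. Ms4a6c was at 1.08 at 0.02 Gy and 0.80 at 0.1 Gy. Of 19 other macrophage markers, 0 were past 1.5-fold at 0.02 and 0.5 Gy and 1 was higher at 0.1 Gy, with medians of 0.00 at each dose. That 1 was Spic, a factor of red pulp macrophages, with 4.37, 4.35, 5.37 and 4.31. Only 4 of the 19 had means at or above 4.06, and 6, 6 and 7 had exactly the 0 Gy value at 0.02, 0.1 and 0.5 Gy. Most of this list thus lay near the background, where a lack of difference cannot be read as a lack of change. Adgre1, which encodes the macrophage antigen F4/80 and was singled out after its values were seen, had 3.22 on all 4 arrays. Its exact value was shared, Adgre1 included, by 105, 149, 153 and 133 named genes at 0, 0.02, 0.1 and 0.5 Gy.

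**Figure D3:**
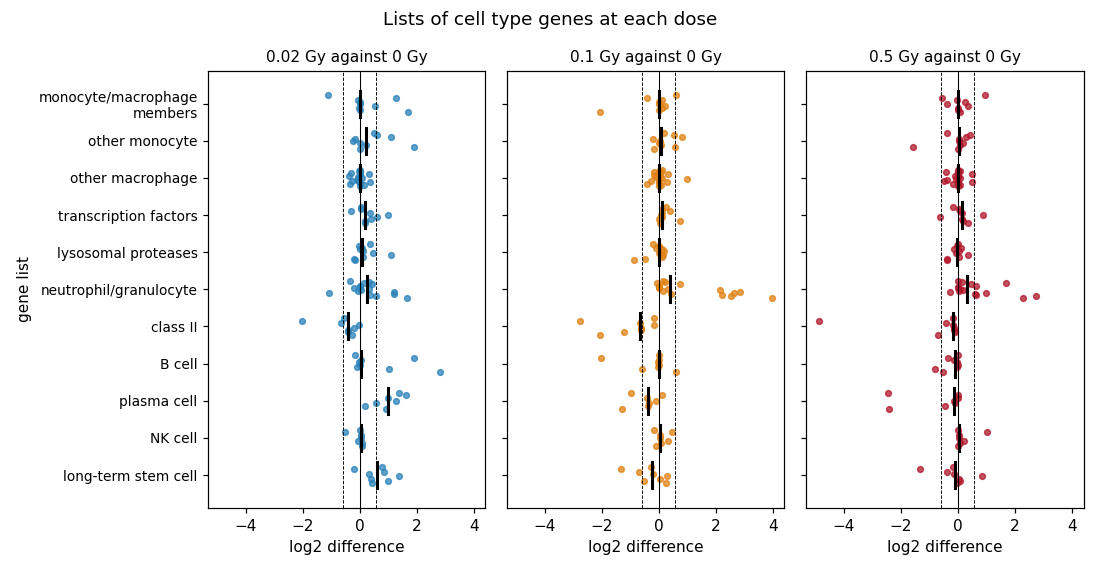
Log2 difference from the 0 Gy array for each gene of 11 lists at the 3 doses, 1 point per gene, with black bars at list medians and dashed lines at 1.5-fold. Points of the macrophage list cluster at 0, but only 4 of its 19 genes have means at or above 4.06. Plasma cell genes lie mostly to the right at 0.02 Gy, and neutrophil and granulocyte genes extend to the right at 0.1 and 0.5 Gy.

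Genes of stem cells and of other blood cells also differed on the arrays on which Cd68, Ctss and Tyrobp did. The 8 long-term stem cell genes had a median difference from 0 Gy of 0.60 at 0.02 Gy, where 4 were past 1.5-fold and all 4 were higher. Their medians at 0.1 and 0.5 Gy were -0.24 and -0.09, and at 0.1 Gy against 0.02 Gy it was -1.07, with 8 of 8 lower. The 7 plasma cell genes had a median of 0.99 at 0.02 Gy, where 5 were past 1.5-fold and all 5 were higher, and the mean log2 value of the list was 5.8, 6.8, 5.3 and 5.0 at 0, 0.02, 0.1 and 0.5 Gy. The 8 B cell genes had 3 past 1.5-fold at 0.02 Gy, all higher, and a mean of 4.17, 4.86, 3.91 and 3.94. Of the defining B cell genes, Cd79a, which encodes a signalling chain of the antigen receptor, had 3.80, 6.61, 4.40 and 3.30 at 0, 0.02, 0.1 and 0.5 Gy, and Cd79b, which encodes its partner chain, had 7.58, 8.62, 7.01 and 6.79. The 0 Gy value of Cd79a lies below 4.06, so the sizes of its differences are uncertain. Pax5, the B lineage factor, had 4.26 on all 4 arrays, and Ms4a1 and Ebf1 lay below 4.06 on each. The exact value of Pax5 was shared, Pax5 included, by 23, 8, 9 and 27 named genes at 0, 0.02, 0.1 and 0.5 Gy. The part of these lists in the values of Cd68 and Ctss was not tested. By smallest root mean square difference after centring, the 3 genes of 18508 whose values followed Cd68 most closely over the 4 arrays were Ly6d, Zfp273 and Cd53. Ly6d, a surface marker of lymphoid progenitors directed to the B lineage, had 6.38, 8.29, 4.37 and 6.03, a distance of 0.24 log2 units. With 4 arrays many genes can match by chance, and no function is implied.

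For Tyrobp, which natural killer cells also use, the 7 natural killer genes had mean log2 values of 4.20, 4.14, 4.29 and 4.40 at 0, 0.02, 0.1 and 0.5 Gy, with 0, 0 and 1 past 1.5-fold at the 3 irradiated doses. The 1 gene was Nkg7, with 8.90, 8.38, 9.36 and 9.92. Klrb1c, which encodes the receptor NK1.1, lay between 5.55 and 5.71, the perforin gene Prf1 between 4.18 and 4.21, and the receptor gene Ncr1 below 4.06 on every array. Of the 16 genes of neutrophils and their progenitors, 4 were past 1.5-fold at 0.02 Gy (3 higher, 1 lower), and 7 were at each of 0.1 and 0.5 Gy, all higher. Over all named genes, 4.59% were higher and 4.27% lower at 0.02 Gy, and 3.99% and 4.36% were higher at 0.1 and 0.5 Gy. Elane, Ctsg and S100a8, higher at both 0.1 and 0.5 Gy, had 3.54, 3.48 and 3.89 at 0 Gy. Camp, higher at 0.1 Gy, had 2.61 at 0 Gy, and Cebpe and Ly6g, higher at 0.5 Gy, had 3.41 and 2.65. These values lie below 4.06, so the sizes of their differences are uncertain. The mean of that list was 3.81, 4.09, 4.96 and 4.45. Mpo, the myeloperoxidase gene of granulocyte and monocyte progenitors, had 4.78, 6.44, 8.75 and 7.07. Its exact 0 Gy value was shared, Mpo included, by 23 named genes. The part of these cells in the values of Tyrobp was not tested.

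Antigen presentation genes, which macrophages share with B and dendritic cells, did not follow Cd68 at 0.02 Gy. Of 8 class II genes, 2, 6 and 2 were at least 1.5-fold lower at 0.02, 0.1 and 0.5 Gy and 0 were higher, with medians of -0.42, -0.64 and -0.17. Cd74, the invariant chain on which cathepsin S acts, had 9.94, 9.68, 7.87 and 9.23, lowest at 0.1 Gy as Cd68 was. H2-DMb2, a chaperone subunit that helps load class II molecules, had the largest difference of the list at each dose, with 7.83, 5.80, 5.06 and 2.95 at 0, 0.02, 0.1 and 0.5 Gy. It was lower at each higher dose, an order that Cd68 did not have. The H2-DMb2 value at 0.5 Gy lies below 4.06, so the sizes of differences that involve it are uncertain. The 9 dendritic cell genes had 0 past 1.5-fold at each dose. Only 2 of them had means at or above 4.06, and 2, 4 and 2 had exactly the 0 Gy value at 0.02, 0.1 and 0.5 Gy. Irf4, a relative of Irf8 that is high in plasma cells, had 3.40, 5.02, 3.53 and 3.41, high on the array at 0.02 Gy alone. Its 0 Gy value lies below 4.06 and was shared, Irf4 included, by 125 named genes, so the size of its difference is uncertain. Lyz1, the close relative of Lyz2, stayed between 3.89 and 4.06.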

How the data were processed

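Per the labels' protocols, total RNA was turned into biotinylated cDNA with Affymetrix whole-transcript reagents. The values the authors deposited are taken as log2 intensities, since they run from 1.22 to 13.02. No source states the base. The submitters' processing notes name Partek with no role or version, and the steps of background correction and normalization, like the build, were not given in the sources used here. Symbols came from the platform table, where 23185 of 25206 probe sets had 1 symbol and 2021 had none. Values were used as deposited with no filter.

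The 4 arrays were grouped by labelled dose, 1 each. Differences were taken per gene and counted at 1.5-fold. The fit was made in R 4.3.3 with limma 3.58.1, moderated by eBayes with 2 residual degrees of freedom, and p-values were adjusted by Benjamini-Hochberg at 0.05. Besides the members and genes that pair with or resemble them, the text names for each list and dose up to 2 genes with the largest absolute difference, and the 3 genes most like the member of widest range, clone-named, predicted and immunoglobulin or receptor genes left out. Pax5, Ms4a1, Ebf1, Klrb1c, Prf1, Adgre1, Ccr2, Cd14, Fcgr1, F13a1, Ctsg, S100a8, Camp, Cebpe and Ly6g were picked after their values were seen. Members and lists were chosen with earlier results of these data known. Alternatives were other scalings, a filter, 2-fold, another control, an intensity trend, a line in dose and leaving out each irradiated array.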

Additional observations from a re-analysis of the deposited data

How the results depend on the processing

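The counts of members at 1.5-fold or more were the same after quantile normalization, median centring and cyclic loess at each dose against 0 Gy and between irradiated doses. No member difference past 1.5-fold changed sign under the other scalings, the filter or the other control. Arrays were left out only in limma, where the estimates of Cd68, Ctss and Tyrobp did change sign. Cd68 went from -0.10 to 0.88 without 0.1 Gy, and Ctss from 0.11 to -0.47 without 0.02 Gy. Tyrobp went from 0.14 to -0.08 without 0.1 Gy and to -0.27 without 0.5 Gy. At 2-fold, 0 members were higher at 0.1 Gy and 0 at 0.5 Gy, since Tyrobp dropped out. Against the mean of the other 3 arrays, 2 members were lower at 0.1 Gy and 1 at 0.5 Gy. With genes at or above the median mean, which keeps only 3 members, the median was 1.27 at 0.02 Gy and -0.40 at 0.1 Gy. In limma the 213 called genes became 320 with an intensity trend and 0 after any of the 3 scalings, with the filter, with a straight line in dose, and, as the lowest and highest value, 0 to 0 on leaving out each irradiated array in turn. No member was called in any of these fits. The cause was not tested. No paired analysis was possible because each dose had 1 array. Signals near the background, where 6 of 9 members lay, limit what could be seen of them.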
